A study of Mus musculus with 17 samples.

Results

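The cytosolic ribosomal proteins were followed through RNA abundance, ribosome occupancy and Msi2 binding in mouse keratinocytes with and without a knockdown of Musashi-2 (Msi2), an RNA-binding protein best known for acting on 3′ UTRs. Members were taken by symbol: names of the form Rpl or Rps followed by a number, plus Rplp0, Rplp1, Rplp2 and Rpsa. The S6 kinases, the paralogs Rpl7l1, Rpl22l1, Rpl39l, Rpl3l, Rpl10l, Rps4l and Rps27l, the binding protein Rps19bp1 and annotated pseudogenes were left out. This gave 78 of 20572 listed genes, 47 of the large and 31 of the small subunit.

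A cytosolic ribosome joins a small subunit, which reads the mRNA, to a large subunit, which forms the peptide bonds, and most ribosomal proteins are needed in equal numbers. Their mRNAs are short, abundant and typically begin with a 5′ terminal oligopyrimidine (TOP) tract, a C followed by a run of C and T, through which growth signals acting via mTOR set how many ribosomes load on them. Free Rpl5, Rpl11 and some other members also bind Mdm2, the ubiquitin ligase of p53. In skin, ribosome supply accompanies the growth of the basal keratinocyte layer.

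The cells were a spontaneously immortalised keratinocyte culture from newborn C57BL/6 skin, grown on mitomycin-treated J2 fibroblasts for its first 3 passages. A lentivirus delivered a scrambled shRNA (control) or an shRNA against Msi2 (knockdown), and both groups were selected with 2 ug/ml of puromycin from day 2 after infection for 2 days. There were 3 control and 3 knockdown libraries of RNA, 3 and 3 of ribosome footprints (the mRNA pieces that ribosomes shield from nuclease, taken after cycloheximide), and 5 Msi2 HITS-CLIP libraries, in which UVC light (200 mJ/cm2) crosslinks protein and RNA before the protein is pulled down. Whether replicate libraries stem from separate infections is not stated in the labels, so each p-value reflects the spread among these libraries only, and that spread may be technical.

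Gene counts came to between 9221566 and 26785876 per RNA library and between 512256 and 2959625 per footprint library. Msi2 footprints were 17.1, 16.8 and 18.3 CPM (counts scaled to library size with TMM factors) in control libraries and 4.53, 0 and 5.12 CPM in knockdown libraries. These rest on few counts, 39, 50 and 13 against 9, 0 and 5. In knockdown footprint library 2, 3 counts correspond to 5.86 CPM before TMM scaling. Msi2 RNA was 6.51, 6.64 and 8.82 CPM against 6.55, 6.41 and 5.1 CPM, a log2 fold change of -0.29 ± 0.21 (SE) that did not pass (edgeR quasi-likelihood test, adjusted p = 0.283). All 8 keratinocyte markers were detected, and their summed RNA ran from 15135 to 19174 CPM in control libraries and from 11980 to 13767 CPM in knockdown libraries. The markers did not all move with that sum: 2 of the 8 were higher and 4 lower at an edgeR adjusted p under 0.05. Over all 11117 tested genes, 22% were higher and 21.7% lower. Summed endothelial and muscle markers ran from 4.87 to 6.16 against 9.29 to 13.5 CPM, fibroblast markers from 15.3 to 17.9 against 18.7 to 22.1 CPM with Col1a2, Col3a1 and Pdgfrb at 0, immune markers from 16.02 to 18.6 against 8.07 to 13.2 CPM, and melanocyte markers reached at most 2.96 CPM. The part of these marker differences in the results was not tested, and fewer cells of a type cannot be told apart from less RNA per cell.

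The TOP tract is the sequence feature that most ribosomal protein mRNAs share, so the annotated starts were read first. A start was found in RefSeq (GRCm38.p6) for 58 of the 78 genes. A C at the annotated start followed by at least 4 pyrimidines was present in 13 of the 58 (22.4%), against 3.01% of 27025 genes with an annotated start. With the C allowed within 5 bases to either side, the tract was present in 46.6% of members and 21.2% of all genes. A gene with several annotated starts counted if any of them had the tract, and the start shown was chosen by its tract. Among the genes shown this concerns Rps21, with 2 annotated starts. The following lines show 30 bases on the gene's strand, 10 before and 20 from the annotated start, for members whose changes are described further on, with the tract in capitals.
Rpl14 (chr9:120571507-120571536, + strand): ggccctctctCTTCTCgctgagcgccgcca
Rplp2 (chr7:141447641-141447670, + strand): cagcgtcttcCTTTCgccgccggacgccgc
Rps6 (chr4:86857348-86857377, - strand): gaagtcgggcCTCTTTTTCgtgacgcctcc
Rps21 (chr2:180257369-180257398, + strand): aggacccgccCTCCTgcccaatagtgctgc
Rps9 (chr7:3704031-3704060, + strand): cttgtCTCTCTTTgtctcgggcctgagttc
Rpl27a (chr7:109519185-109519214, + strand): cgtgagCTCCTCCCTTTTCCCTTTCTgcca
Rpl12 (chr2:32961702-32961731, + strand): agcaggatccgtCTTTTCggctttcggctc
Rpl5 (chr5:107900518-107900547, + strand): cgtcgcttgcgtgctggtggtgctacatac
Rpl23 (chr11:97782420-97782449, - strand): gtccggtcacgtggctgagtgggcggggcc
Rplp0 (chr5:115559457-115559486, + strand): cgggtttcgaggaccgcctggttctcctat
In the first 4 the tract begins at the annotated start, and in Rps9, Rpl27a and Rpl12 it begins within 5 bases of it. Rpl5, Rpl23 and Rplp0 have none that begins within 5 bases of the annotated start, which says only that these letters are not there. Within 250 bases before and 50 after the start, CCGGAAG or its reverse complement CTTCCGG, the core recognised by Ets factors such as GABP, occurred in 41.4% of members and 9.93% of all genes. The motif AAGATGG or CCATCTT, the core recognised by YY1, occurred in 15.5% and 7.28%, and TATAAA or TTTATA in 10.3% and 15.7%. Windows were read on both strands, and matches are descriptions, not sites.

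Ribosomal protein genes made up a large part of the RNA and a smaller part of the footprints, and neither part differed between the groups beyond the spread. In RNA they took 22.5, 25.1 and 22.4% of gene counts in control libraries and 21.8, 24.1 and 23.4% in knockdown libraries (23.4 ± 1.51% and 23.1 ± 1.16%, SD, n = 3, 2-sided exact permutation p = 0.8). In footprints they took 8.61, 9.66 and 9.34% in control libraries and 10.3, 8.98 and 9.44% in knockdown libraries (9.20 ± 0.538% and 9.57 ± 0.668%, exact permutation p = 0.5). The groups overlap in both assays, and 3 against 3 libraries cannot give a p under 0.1. The RNA difference of -0.243 percentage points turned to 0.627 without control library 2 and to 0.398 without knockdown library 1. The footprint difference of 0.366 points was 0.00495 without knockdown library 1 and 0.0701 without control library 1.

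In RNA, single members changed both ways. Of 76 members that passed the filter on low counts, 5 rose and 20 fell past the threshold (adjusted p under 0.05), against 22% of all 11117 tested genes higher and 21.7% lower. The member median was -0.20 on the log2 scale, against 0.004 for all genes, and 14 of 76 members (18.4%) lay above 0 against 50.3% of genes. Members can move together within a library: the SD of the members' median between libraries of a group was 0.156. Medians and counts of members are therefore a description, not a test. By subunit, 3 of 46 large subunit members rose and 15 fell (median -0.25), and 2 of 30 small subunit members rose and 5 fell (median -0.16). Counted by library, 5 members had all 3 knockdown values above all 3 control values and 27 had them all below, against 26.8% and 26.2% of all genes. Ribosomal protein genes are short, with a median genomic span of 3.17 kb against 23.6 kb over tested genes, and with each library's trend over span removed 12 members were higher, 10 were lower and the member median was -0.02. Of all 11117 genes, 2226 were higher and 2526 lower in that fit, with a median of -0.02. Without control library 2 the member median was -0.08. Rpl34 and Rps27 are listed at 0 in every RNA and footprint library and were not tested.

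Among the members lower in RNA, the fall was led by Rpl5, which binds the 5S rRNA. Its RNA was 3611, 4103 and 3160 CPM in control libraries and 2349, 2467 and 2473 CPM in knockdown libraries. All knockdown libraries lay below all control libraries, with a log2 fold change of -0.58 ± 0.13 (edgeR adjusted p = 0.00239). Rpl3, which reaches into the peptidyl transferase centre, was at 3851, 4303 and 3543 CPM against 2618, 2678 and 2856 CPM (log2 fold change -0.52 ± 0.13, edgeR adjusted p = 0.00409). Rpl8, another large subunit protein close to that centre, was at 3591, 3730 and 2956 CPM against 2375, 2238 and 2568 CPM (-0.52 ± 0.14, edgeR adjusted p = 0.00536). Again the groups did not overlap for either gene. Rpl14, on the outer face of the large subunit, was at 2664, 2863 and 2236 CPM against 1784, 1712 and 1908 CPM (-0.52 ± 0.13, edgeR adjusted p = 0.00457). Rps9, which lines the path by which mRNA enters the small subunit, was at 3135, 3581 and 2650 CPM against 2180, 2125 and 2351 CPM (-0.49 ± 0.14, edgeR adjusted p = 0.00827). These 5 calls held under every alternative tried. Rps23, which sits at the decoding centre, fell from 1162, 1306 and 1033 to 822, 825 and 852 CPM (-0.49 ± 0.13, edgeR adjusted p = 0.00522), and its change was -0.23 once the span trend was taken out, with an edgeR adjusted p of 0.0762. The other 14 that fell were Rpl36al, Rpl9, Rpl18, Rps14, Rps3, Rpl6, Rps27a, Rpl19, Rpl7, Rpl13, Rpl4, Rpl30, Rpl36 and Rpl15, with changes between -0.46 and -0.34. Each of these 14 calls was lost under at least 1 of 13 alternatives, from 1 for Rps3 (without knockdown library 1) to 10 for Rpl15 and Rpl36. With the span trend removed, Rpl18, Rps14, Rps3, Rpl6 and Rpl19 still passed and the other 9 did not.

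The members higher in RNA included Rplp0 and Rplp1 of the ribosomal stalk, the flexible arm that recruits elongation factors, and Rpl12 at its base. Rpl12 was at 6732, 7797 and 7513 CPM in control libraries and 8693, 11801 and 11433 CPM in knockdown libraries (log2 fold change 0.53 ± 0.15, edgeR adjusted p = 0.00749). Rplp0, which anchors the arm, was at 7682, 9662 and 8938 CPM against 10578, 12746 and 12519 CPM (0.45 ± 0.14, edgeR adjusted p = 0.0174). Rplp1, which pairs with Rplp2 in the arm, was at 6432, 7931 and 6868 CPM against 8411, 10042 and 10505 CPM (0.45 ± 0.14, edgeR adjusted p = 0.0173). In each of these genes the lowest knockdown library lay above the highest control library. Rplp2, the partner of Rplp1, was at 2185, 2490 and 1865 CPM against 1730, 1962 and 1938 CPM, and with its groups overlapping it did not pass (-0.22 ± 0.14, edgeR adjusted p = 0.21). The remaining increases were in the small subunit: Rps12 was at 5104, 6721 and 5595 CPM against 6853, 8755 and 8329 CPM (0.46 ± 0.15, edgeR adjusted p = 0.0186). Rps2, near the mRNA entry, was at 9848, 10928 and 10294 CPM against 12222, 12918 and 14476 CPM (0.35 ± 0.13, edgeR adjusted p = 0.0436). No overlap was seen between the groups in either. The count of members higher in RNA was 0 without control library 1, without knockdown library 2 or without knockdown library 3. In those fits 1708, 1947 and 1921 of all genes were higher. The call of Rps2 was lost under 8 of 13 alternatives.

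**Figure D1:**
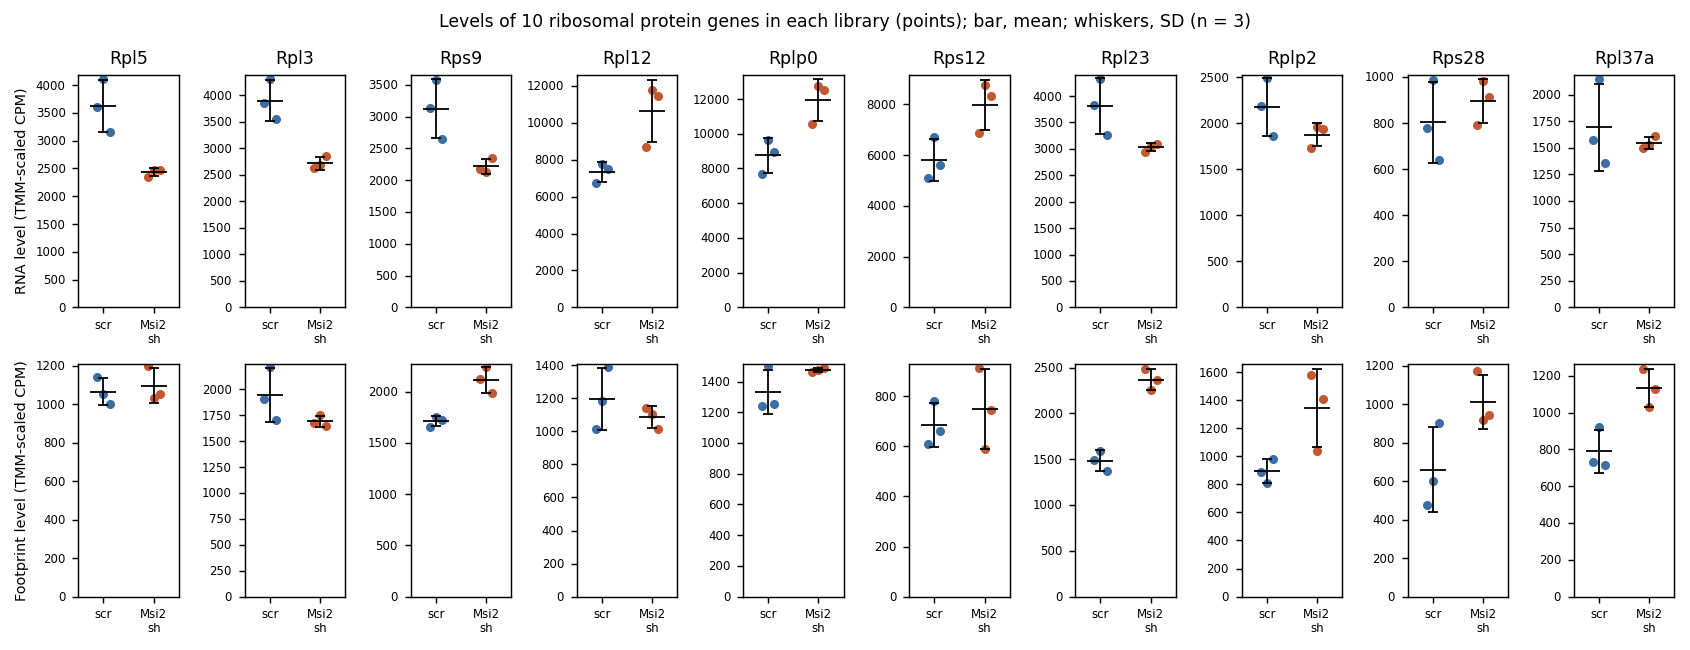
RNA (upper row) and footprint (lower row) levels of 10 ribosomal protein genes in TMM-scaled CPM for the scrambled control (scr) and the Msi2 shRNA; points are libraries, bars means and whiskers SD (n = 3). Rpl5 RNA lies between 3160 and 4103 CPM in control libraries and between 2349 and 2473 CPM in knockdown libraries, while Rpl23 footprints lie between 1367 and 1594 CPM and between 2258 and 2485 CPM.

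Footprints of most members lay above the control in the knockdown. Of 75 members tested, 10 rose and 0 fell, against 8.76% of 8969 tested genes higher and 7.38% lower. The member median was 0.12 against -0.01 for all genes, and 58 of 75 (77.3%) lay above 0 against 48.9% of genes. That median was 0.06 without control library 1, 0.07 without knockdown library 1 and 0.20 with the span trend removed. The SD of the members' median between footprint libraries of a group was 0.109. At an unadjusted p under 0.05, 1 member was lower in edgeR (Rpl13, 2100, 2775 and 2937 CPM in control libraries and 2251, 1921 and 2020 CPM in knockdown libraries). At an adjusted p under 0.05, DESeq2 called 0 members lower, against 373 of 8969 genes. Knockdown values all above control values were seen in 17 members and all below in 1, against 15.9% and 15.4% of all genes.

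The leading increase was in Rpl23, a large subunit protein at the face that meets the small subunit. Its footprints were 1490, 1594 and 1367 CPM in control libraries and 2485, 2258 and 2359 CPM in knockdown libraries. The groups were well apart, with a log2 fold change of 0.67 ± 0.13 (edgeR adjusted p = 0.000157). Rplp2 of the stalk was at 889, 814 and 982 CPM against 1580, 1037 and 1412 CPM (0.60 ± 0.14, edgeR adjusted p = 0.00207), and Rpl37a of the large subunit at 732, 921 and 714 CPM against 1237, 1031 and 1128 CPM (0.52 ± 0.13, edgeR adjusted p = 0.00464). Neither gene's groups overlapped, and the calls of Rpl23, Rplp2 and Rpl37a held under every alternative tried. Rps28, a small subunit protein near the mRNA exit, was at 478, 601 and 903 CPM against 1174, 919 and 947 CPM (0.64 ± 0.18, edgeR adjusted p = 0.0202). The highest control library lay just under the lowest knockdown library, and DESeq2 gave it an adjusted p of 0.2. Rpl11, the partner of Rpl5 in the 5S particle, was at 965, 1059 and 931 CPM against 1533, 1207 and 1374 CPM (0.48 ± 0.13, edgeR adjusted p = 0.00753). Rps29, in the head of the small subunit, was at 638, 945 and 842 CPM against 1241, 1027 and 1114 CPM (0.48 ± 0.14, edgeR adjusted p = 0.0116). Both genes had every knockdown library above every control library. Rpl27a, Rpl36a, Rplp1 and Rps21 made up the other 4, with changes between 0.41 and 0.46, and in Rps21 the groups overlapped. The 7 calls other than Rpl23, Rplp2 and Rpl37a each failed without at least 1 library, and knockdown library 1 was among those libraries for all 7.

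**Figure D2:**
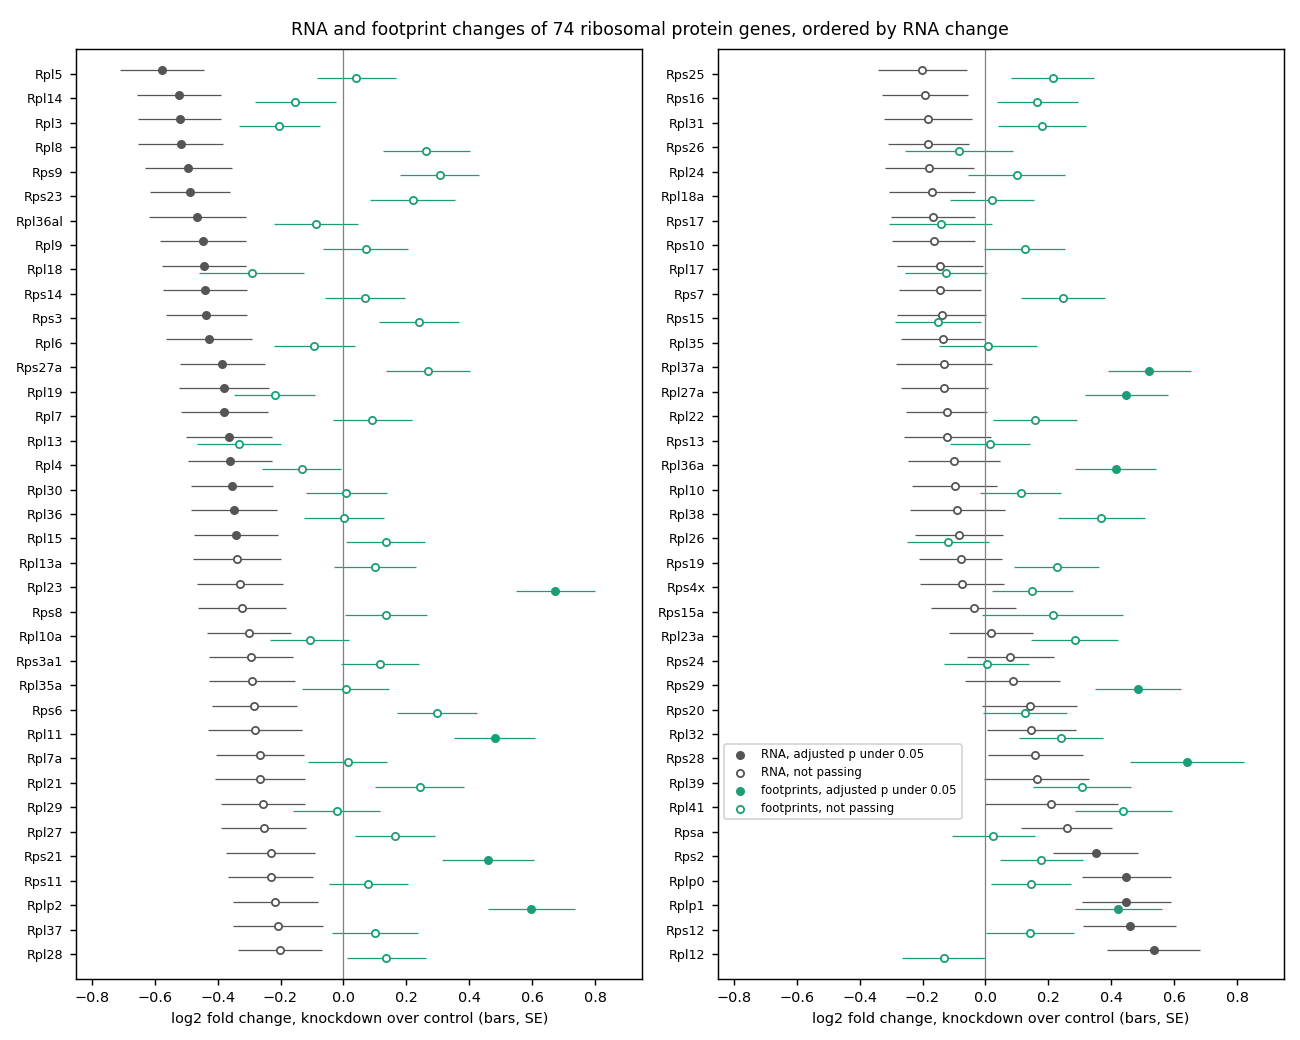
Log2 fold changes, knockdown over control, of RNA (grey) and footprints (green) for 74 of the 75 members tested in both assays, ordered by RNA change; bars are SE and filled points pass an adjusted p of 0.05. The 20 members that fell in RNA have footprint changes between -0.33 and 0.31, none of which passed.

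RNA and footprint calls were then set side by side. Rplp1 alone rose in both assays, and no member was called in opposite directions. Of the 20 members lower in RNA, 0 were called in footprints, where their changes ran from -0.33 to 0.31, against 25.3% of the 2182 genes lower in RNA and tested in both assays. Of the 10 that rose in footprints, 9 were not called in RNA, against 24.05% of 786 genes. Neither share was matched for the size of the change. The RNA changes of the 20 members ran from -0.58 to -0.34, while those of all tested genes reached down to -7.48. Rpl5 is an example of the first kind: its footprints were 1143, 1055 and 1002 CPM in control libraries and 1201, 1035 and 1053 CPM in knockdown libraries (0.04 ± 0.13, edgeR adjusted p = 0.871), and the groups overlap. Rpl12 and Rplp0 are examples of an RNA rise without a footprint call, with footprint changes of -0.13 and 0.14. These calls compare each assay with its own control, and whether the assays differ was tested next.

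The change in footprints relative to RNA, the interaction of assay and knockdown over 12 libraries, was above 0 in 68 of 76 members (89.5%) against 51.8% of 10821 genes. The member median was 0.33 on the log2 scale against 0.02 for all genes. The SD of the members' median between libraries, combined over the RNA and footprint libraries, was 0.191. In the interaction test 1 member passed in the upward direction and 0 in the downward, against 0.129% and 0.0739% of all genes. At an unadjusted p under 0.05, 26 members were higher and 1 lower, against 6.99% and 5.03% of genes. At an adjusted p under 0.05, DESeq2 called 10 members higher and 1 lower, against 60 and 38 of 10821 genes. These counts include Rps18, of the small subunit head, which had between 20924 and 69837 RNA counts per library and only between 1 and 7 footprint counts. Leaving it out, a choice made after seeing the data, gave 67 of 75 members above 0, a median of 0.33 and 25 members higher at an unadjusted p under 0.05. The median over all 76 was 0.14 without control RNA library 2, where that of all genes was -0.05. With 10 CPM required in 3 libraries it was 0.21 over 75 members, against -0.06 for all genes. The member that passed was Rpl23, whose RNA was 3838, 4321 and 3264 CPM in control libraries and 2945, 3060 and 3089 CPM in knockdown libraries. Its RNA groups did not overlap and its footprint groups did not overlap, in opposite directions. The ratio changed by 1.02 ± 0.19 (edgeR adjusted p = 0.0208), and 0 members were called without control RNA library 1, knockdown RNA library 1 or 3, control footprint library 1 or 3, or knockdown footprint library 1 or 3. The edgeR adjusted p of Rpl23 ran from 0.0547 to 0.12 in those 7 fits, and with a replicate block it was 0.0917 (1.01). Over all genes, those 7 fits called 0 to 4 higher and the replicate block called 1, against 14 in the main fit.

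Other members with large ratio changes did not pass. The largest was that of Rps18, 1.41 ± 0.58 (edgeR adjusted p = 0.315), which rests on between 1 and 7 footprint counts per library. Next were Rplp2 at 0.83 ± 0.21 (edgeR adjusted p = 0.0804), Rps9 at 0.81 ± 0.19 (0.0535), Rpl8 at 0.79 ± 0.21 (0.105) and Rpl11 at 0.78 ± 0.21 (0.117). Rpl12 had the lowest ratio change, -0.65 ± 0.21 (edgeR adjusted p = 0.172), beside its rise in RNA. The ratio subtracts the RNA change, so the low values of members chosen for an RNA rise are a description: those of Rplp0, Rps12, Rps2 and Rplp1 were -0.29, -0.30, -0.16 and -0.01, and Rplp1 turned to 0.11 without control footprint library 2.

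**Figure D3:**
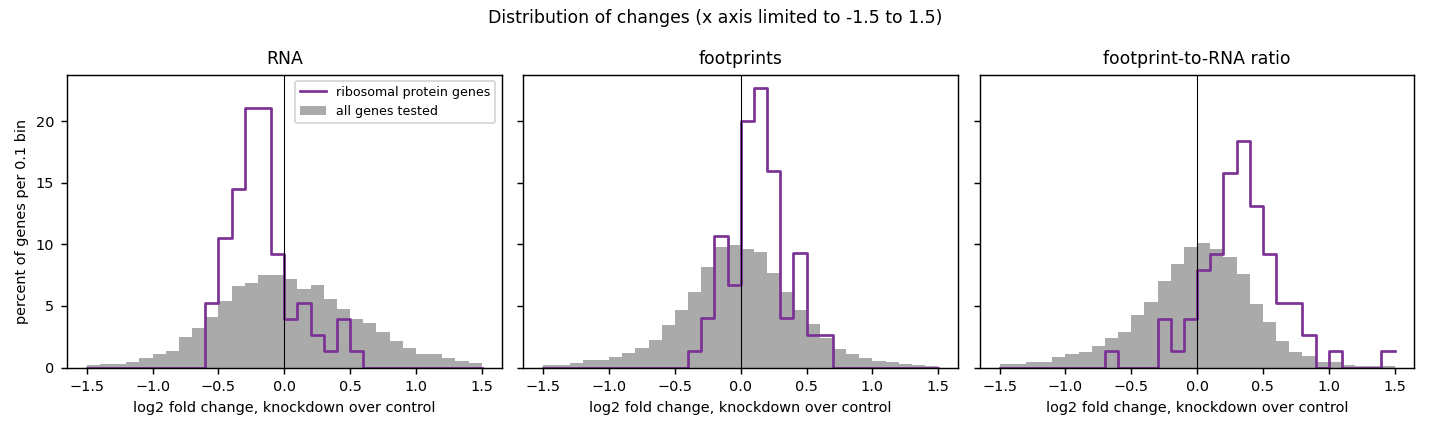
Distribution of log2 fold changes, knockdown over control, for ribosomal protein genes (line) and all tested genes (grey), as percent of genes per bin of 0.1, in RNA, footprints and their ratio, where Rps18 is included. The members' medians are -0.20, 0.12 and 0.33, against 0.004, -0.01 and 0.02 for all genes.

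Relative to their RNA, ribosomal protein mRNAs carried few footprints in the control itself. The footprint level was divided by the RNA level, both counted over coding sequences. Coding length was taken to cancel in this division, which was not checked. The ratio had a median of 0.422 over 75 members and of 1.14 over 8918 genes, and 74 of 75 members lay below the gene median. A low ratio was not particular to the members. The 19 other TOP mRNAs described further on all lay below the gene median too, from 0.0584 (Pabpc1) to 1.01 (Eef1d). These 75 members ranged from 0.0503 for Rpl18, a large subunit protein, to 1.71 for Rpl41, the smallest ribosomal protein. Rps18 is not among them, since its footprint counts did not pass the filter. Its control means were 2749 CPM in RNA and 1.62 CPM in footprints, a ratio of 0.000588. Rpl18 footprints were 156, 166 and 140 CPM in the control, beside RNA of 3085, 3431 and 2669 CPM. Rpl41 footprints were 435, 740 and 707 CPM, beside RNA of 361, 504 and 239 CPM. The 5 members that rose in RNA had control ratios between 0.107 (Rps2) and 0.201 (Rplp1), with a median of 0.152, against a median of 0.428 in the 20 that fell and 0.434 in the rest. Those values share the control RNA libraries with the RNA test and are given as a description. In the knockdown libraries the member median was 0.537 and that of all genes 1.18. Counts of reads that aligned to several places were left out of the RNA table: they made up 15.2 ± 2.01% of reads in control libraries and 21.8 ± 2.45% in knockdown libraries (n = 3, exact permutation p = 0.1, the smallest possible), and the footprint table does not list them. Many ribosomal protein genes have processed pseudogenes that share such reads, and their part in the levels and changes was not tested.

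**Figure D4:**
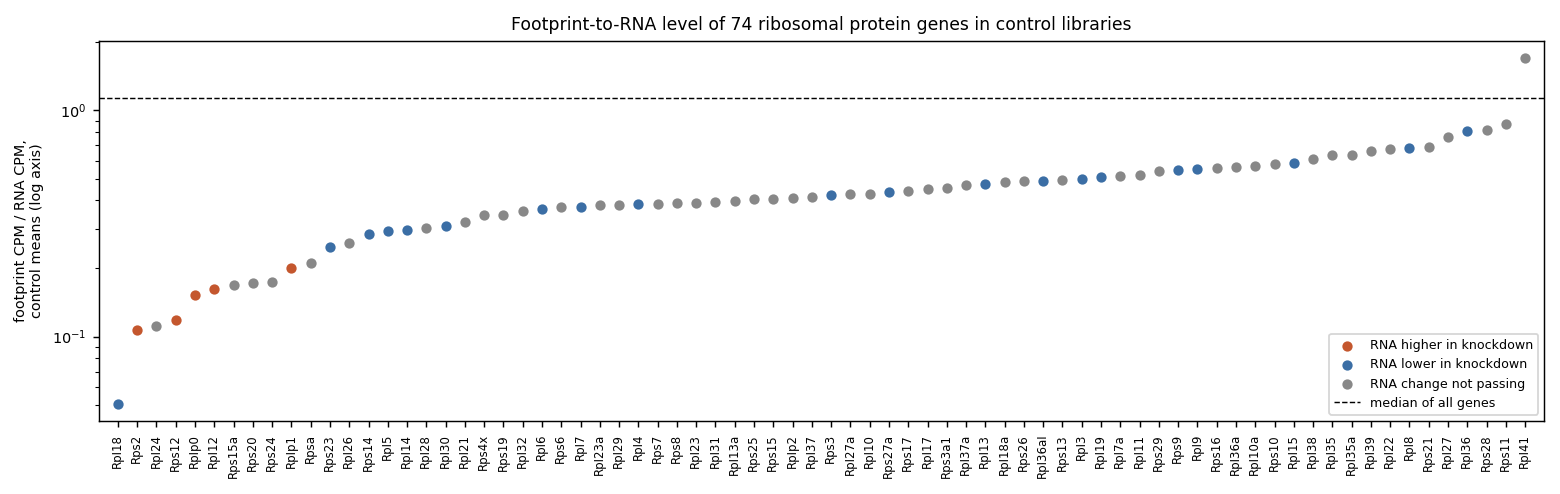
Footprint CPM divided by RNA CPM (control means, log axis) for 74 of the 75 ribosomal protein genes in rising order, coloured by RNA call, with the median of all genes (1.14) dashed. The 5 members higher in RNA lie between 0.107 and 0.201, and Rpl41 alone lies above the dashed line.

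Further members were followed for their known roles. Rpsa, also known as the laminin receptor, had RNA of 6875, 9057 and 7503 CPM against 8472, 9402 and 10159 CPM (0.26 ± 0.14, edgeR adjusted p = 0.155) and overlapping groups. Rps6, the S6 kinase substrate, had RNA of 3242, 3907 and 3014 CPM against 2664, 2781 and 2904 CPM (-0.28 ± 0.14, edgeR adjusted p = 0.0981). Its footprints were 1181, 1340 and 1263 CPM against 1695, 1448 and 1500 CPM (0.30 ± 0.13, edgeR adjusted p = 0.106). Neither assay's groups overlap for Rps6, yet neither passed. Rps27a, made as a fusion to ubiquitin, fell in RNA from 2969, 3390 and 2543 to 2161, 2363 and 2294 CPM (-0.38 ± 0.14, edgeR adjusted p = 0.0297). That call was lost under 7 of 13 alternatives: with the span trend removed (-0.16, edgeR adjusted p = 0.222), with a replicate block, without control library 1 or 2, and without any 1 of the knockdown libraries. Its footprints were 1286, 1410 and 1179 CPM against 1839, 1474 and 1350 CPM, and the groups overlapped. Rps19, the member first linked to Diamond-Blackfan anaemia, had changes of -0.08 in RNA and 0.23 in footprints. Rpl10, a late joining subunit protein beside the P site, had changes of -0.10 and 0.11, and Rpl22, a large subunit protein that lymphocytes depend on, of -0.12 and 0.16. The RNA changes of Rps19 and Rpl10 turned to 0.05 and 0.12 with the span trend removed. Rpl39, which lines the exit tunnel, had changes of 0.16 and 0.31, and Rpl41 of 0.21 and 0.44. Rpl41 footprints of 868, 911 and 765 CPM in the knockdown all lay above the control values given before, with an edgeR adjusted p of 0.0505. Fau, a ribosomal protein fused to a ubiquitin-like protein that the naming rule misses, fell in RNA from 1848, 2257 and 1570 to 1327, 1445 and 1424 CPM (-0.44 ± 0.14, edgeR adjusted p = 0.0194).

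Other TOP mRNAs, those of elongation and initiation factors and a few RNA-binding proteins, are listed next. Of 19 such genes, 1 rose and 7 fell in RNA (median -0.25), 5 rose and 0 fell in footprints (median 0.26), and 1 rose in the ratio (median 0.45). As shares of the list these were 5.26% and 36.8% in RNA and 26.3% and 0% in footprints, beside the 22% and 21.7% in RNA and the 8.76% and 7.38% in footprints given for all genes. Eef1b2, a subunit of the exchange factor for elongation factor 1, had footprints of 1002, 1110 and 1192 CPM in control libraries and 2260, 1657 and 2081 CPM in knockdown libraries. Its groups stood apart, with a footprint change of 0.87 ± 0.13 (edgeR adjusted p = 7.11e-06) and a ratio change of 0.98 ± 0.20 (edgeR adjusted p = 0.0336). Pabpc1, the cytoplasmic poly(A)-binding protein, rose in RNA from 3845, 4613 and 5017 to 7547, 8545 and 8470 CPM (0.87 ± 0.14, edgeR adjusted p = 0.00014). The translocation factor Eef2 fell in RNA from 5980, 5737 and 6362 to 3948, 4687 and 4167 CPM (-0.50 ± 0.13, edgeR adjusted p = 0.00587), while its footprint change was 0.26 ± 0.13 and did not pass.

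The other lists are given beside the same shares of all genes. Of 39 genes of ribosome biogenesis and RNA polymerase I, 9 rose and 6 fell in RNA (median -0.01), 7 rose and 1 fell in footprints (median 0.08), and 0 were called in the ratio by edgeR, with 4 higher and 0 lower at an unadjusted p under 0.05. The RNA counts are 23.1% and 15.4% of the list, and the footprint counts 17.9% and 2.56%. Utp20 of the small subunit processome (0.64 in RNA) and the polymerase subunits Polr1a (0.62) and Polr1b (0.65) rose, the subunit Polr1c fell (-0.31, edgeR adjusted p = 0.0357), Polr1e did not pass (-0.12), and the subunit joining inhibitor Eif6 (-0.63) and the rRNA methyltransferase Fbl (-0.62) fell. Of 24 regulators of ribosomal protein mRNA translation, 9 rose and 4 fell in RNA (median 0.24), 2 rose and 1 fell in footprints (median 0.18), and 0 were called in the ratio by edgeR, with 0 higher and 1 lower at an unadjusted p under 0.05. Those are 37.5% and 16.7% of the list in RNA and 8.33% and 4.17% in footprints. Eif4ebp1, the cap-binding inhibitor that mTOR phosphorylates, was at 357, 293 and 296 CPM in control RNA and 92.9, 115 and 93.1 CPM in knockdown RNA. That gap corresponds to a log2 fold change of -1.65 ± 0.13 (edgeR adjusted p = 1.18e-07), and its footprints fell by 1.36. The mTOR activator Rheb fell in RNA (-0.67) and the initiation scaffold Eif4g1 rose (0.62). The list of the 5S particle and the p53 axis holds 8 genes, and 3 of them are the members Rpl5, Rpl11 and Rpl23. Of the other 5, 2 rose and 1 fell in RNA (40% and 20%), and 2 rose and 1 fell in footprints (40% and 20%). In the ratio 0 of the 5 were called by edgeR, with 0 at an unadjusted p under 0.05. Mdm2 was at 74.2, 73 and 86.1 CPM in control RNA and 127, 157 and 129 CPM in knockdown RNA (0.83 ± 0.12, edgeR adjusted p = 4.72e-05). The nucleolar protein Gltscr2 fell in RNA (-0.82) and in footprints (-0.47).

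Msi2 binding at ribosomal protein genes was read from the deposited CLIP regions, found over 5 libraries that differ in RNase dilution. In the list of 2671 regions that the authors assign to 3′ UTRs, 9 of 76 RNA-tested members had a region (11.8%), against 10.3% of tested genes. In the full list of 4051 regions, which holds the former, 34 of 76 members had a region within their span (44.7%), against 12.8% of 10415 genes. Most of these regions lay over small nucleolar RNAs (snoRNAs), which guide rRNA modification and are cut from introns of host genes. An annotated snoRNA gene lay within the span of 30 of 78 members, against 2.41% of tested genes, and 29 of the 30 had a CLIP region over a snoRNA (the exception was Rpl6). Of the 48 members without one, 5 had a region. In all, 56 of 68 regions at members (82.4%) overlapped a snoRNA gene, against 5.18% of all 4051 regions, and those held 6057 of 6331 reads (95.7%). The full list held 210 regions over snoRNA genes, most of them not at members. The share of other snoRNA host genes with such a region was not computed, so these shares do not set members apart from other hosts.

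Rpl13a, a large subunit protein, had the most reads. Its region over Snord35a (chr7:45126345-45126440, mm10, - strand) held 11, 80, 80, 149 and 121 reads in the 5 libraries, in the order undiluted RNase, 1 in 20 at low and at high molecular weight, 1 in 50 and 1 in 75. Its regions over Snord32a, Snord33 and Snord34 held 200, 179 and 119 reads in all. The 3 regions of Rps12 in the 3′ UTR list lay over snoRNA genes as well, with 239 reads over Snord100 (chr10:23785733-23785824, - strand), 236 over LOC115487513 and 53 over Snora33. All 5 libraries contributed to the Snord100 region, with 10, 32, 43, 92 and 62 reads. Rps3 had 81 reads over Snord15b and 13 in a region with no other gene. Over the 12 regions of members in the 3′ UTR list, 609 of 757 reads (80.4%) fell in the 4 that overlap a snoRNA gene.

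Regions over no snoRNA gene were few and shallow. In the 3′ UTR list they included 34 reads at Rpl4, 19 at Rpl39, 19 at Rps20, 16 at Rpl32, 15 at Rps26, 13 at Rps3 and 10 at Rps21. The Rpl4 region (chr9:64178430-64178525, + strand) lies within the gene, and its 5 libraries gave 0, 15, 5, 9 and 5 reads. The Rpl32 region lies at the edge of that gene's RefSeq span and also overlaps Cand2. Of these 7 genes, Rpl4 and Rps3 fell in RNA and Rps21 rose in footprints, and the others were not called in RNA or footprints. In the full list, such regions were at Rpl8 (34 reads), Rpl4 (24), Rpl7 (10) and Rps3a1 (58, over Snord73b, which RefSeq lists as a snRNA). Strand of the snoRNA genes was not compared. Members that host a snoRNA and members that do not had medians of -0.21 and -0.19 in RNA, 0.11 and 0.14 in footprints, and 0.31 and 0.38 in the ratio. These differences were not tested.

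**Figure D5:**
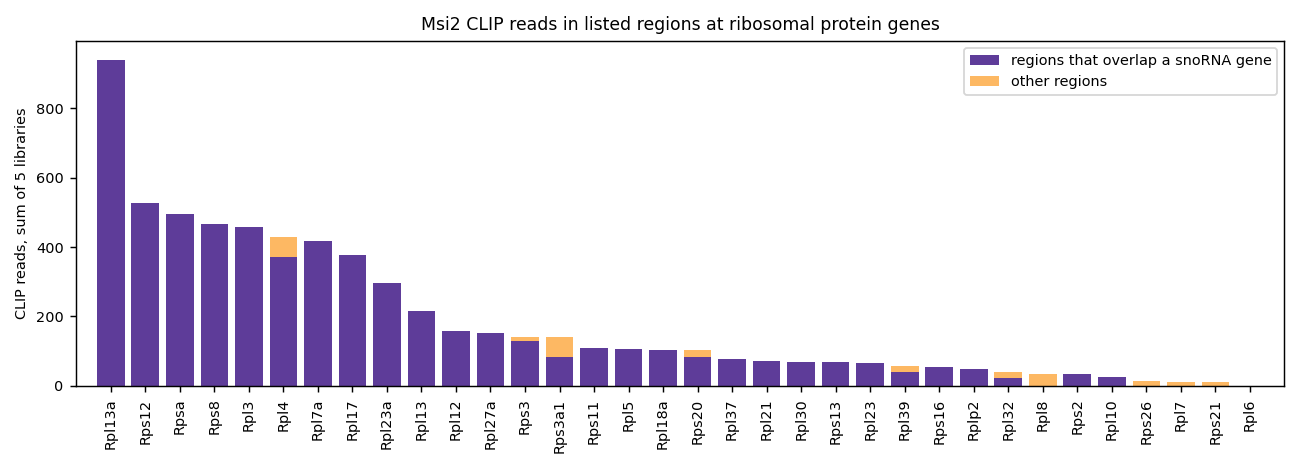
Msi2 CLIP reads, summed over 5 libraries, in deposited regions at ribosomal protein genes that have a region or host a snoRNA, split into regions that overlap a snoRNA gene (purple) and others (orange). Rpl13a has 939 reads, all over snoRNA genes, and Rpl6 has none.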

How the data were processed

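The tables the authors deposited for RNA and footprints hold whole-number counts over coding sequences, produced on mm10 by TopHat and HTSeq. The submitters' processing notes give these tools, and DESeq too, without versions. CLIP reads went through cutadapt and Novoalign, per the same notes. The authors' region lists give a signal (peak height) and read counts per library. Reads assigned to no gene (32.3 to 35.2% of an RNA library), ambiguous reads (0.175 to 0.228%) and reads aligned to several places stayed out of library sizes.

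Counts were analysed with edgeR 4.0.16 in R 4.3.3: filterByExpr (minimum count 10, total 15), TMM scaling, a robust quasi-likelihood F test and p-values adjusted by Benjamini-Hochberg over all tested genes (threshold 0.05). RNA and footprints were fitted apart, and the ratio was their interaction over 12 libraries. Fold changes are knockdown over control with the standard error of the fit. Tests were tried on simulated data first. Alternatives were DESeq2 1.42.0, upper-quartile factors, TMM factors without the members, no filter, 10 CPM required in at least 3 libraries, a replicate block, removal of each library's trend over genomic span (loess, span 0.5), each library left out and, chosen after seeing the data, Rps18 left out of the ratio summary.

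The members, gene lists and alternatives were chosen with earlier results of these data known. Members given per library were the called ones with the 6 largest changes in each direction per comparison and those with known roles or a CLIP region; at most 3 genes per other list were named, by p. Rpl13, Eef2, Eif6, Fbl, Polr1c, Polr1e and the ratio changes that did not pass were named after their values were seen. Gene positions and starts came from RefSeq GRCm38.p6 (78 of 78 and 58 of 78 members). CLIP regions were assigned to a member by the authors' symbol or by any overlap with its span. No counting intervals were computed for CLIP reads. Values of some single genes are not reported here.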

Additional observations from a re-analysis of the deposited data

Results flagged for a closer look

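Rpl23, which sits at the face where the ribosomal subunits join, moved differently in the assays: its footprints rose (0.67) while its RNA change of -0.33 did not pass, and the difference between the footprint and RNA log2 fold changes was 1.02 (edgeR quasi-likelihood test of the interaction, adjusted p = 0.0208). The call was lost with a replicate block (1.01, edgeR adjusted p = 0.0917) and without any 1 of 7 libraries (edgeR adjusted p 0.0547 to 0.12). Over all genes, the block fit called 1 higher and the fits without those libraries 0 to 4, against 14 in the main fit. The share of RNA reads that aligned to several places, which no gene count includes, was 21.8% on average in the knockdown against 15.2% in the control, with no overlap between the groups.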

How the results depend on the processing

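The library numbers gave no clear pairing of control with knockdown libraries within an assay. Same-numbered deviations from the group means correlated at 0.0998, -0.347 and -0.302 in RNA and at 0.0497, 0.0289 and -0.00281 in footprints. With 3 libraries per group this check cannot exclude a pairing. RNA and footprint libraries of the same number were not compared, and the ratio fits did not pair them. In RNA, control library 3 and knockdown library 2 correlated at 0.398, and control library 2 and knockdown library 3 at 0.318. The remaining RNA pairs with unlike numbers ran from -0.162 to 0.0826. Whether libraries with unlike numbers share a batch was not tested, and the replicate block joins libraries by number only. With a replicate block, 11 members were lower in RNA and 0 higher in the ratio, against 1932 of 11117 and 1 of 10821 genes. With that block 10 of 25 RNA calls were lost and Rplp1's ratio change turned to 0.0068. With the span trend removed, 12 members were higher and 10 lower in RNA (median -0.0182), and 3 higher and 1 lower in the ratio. Over all genes these fits called 2226 higher and 2526 lower of 11117 in RNA, and 28 and 12 of 10821 in the ratio. In them the RNA changes of Rpl10 (0.12) and Rps19 (0.047) and the ratio change of Rpl41 (-0.0048) reversed. In the ratio, DESeq2 called 10 members higher and 1 lower, against 60 and 38 of 10821 genes. The fit with no filter called 5 and 1, against 46 and 78 of 14734 genes, with the median of all genes moved by -0.11. Other fits of member counts stayed within 1.5 times. The causes were not tested.

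Leaving out 1 library at a time gave 0 to 9 members higher and 6 to 35 lower in RNA, 3 to 13 higher and 0 to 1 lower in footprints, and 0 to 11 higher and 0 to 1 lower in the ratio. Over all genes the same fits gave 1708 to 2721 higher and 1840 to 2765 lower in RNA. In footprints they gave 463 to 885 and 350 to 749, and in the ratio 0 to 94 and 0 to 149. The RNA share difference ran from -0.736 to 0.627 percentage points, positive without control library 2 (0.627) or knockdown library 1 (0.398). Uncalled changes that reversed ranged in RNA from -0.17 to 0.013 (Rpl10), -0.031 to 0.50 (Rpl41) and -0.15 to 0.0095 (Rps19), in footprints from -0.025 to 0.090 (Rpl5) and -0.056 to 0.18 (Rpsa), and in the ratio from -0.15 to 0.34 (Rpl39), -0.13 to 0.41 (Rpl41) and -0.18 to 0.11 (Rplp1). Regions of the full CLIP list gave 44.7% of members against 11.8%, and a tract within 5 bases 46.6% against 22.4%. Footprint depth limits the ratio: the shallowest library held 512256 counts.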

Other observations

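The paralogs that the naming rule leaves out gave a varied picture. Rps27l, a paralog of Rps27 and a p53 target, had footprints of 319, 393 and 351 CPM in the control and 474, 608 and 436 CPM in the knockdown (log2 fold change 0.50 ± 0.14, edgeR adjusted p = 0.00931), and its RNA did not pass (-0.05 ± 0.13). Rpl22l1, the paralog of Rpl22, did not pass in RNA (-0.17) or footprints (-0.12), and neither did Rpl7l1 (-0.28 in RNA). The germline and muscle paralogs Rpl39l, Rpl3l and Rpl10l had at most 2 counts in any library.

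Starts with a tract within 5 bases were found in 6 of 13 matched members that fell in RNA, 2 of 4 that rose in RNA and 3 of 8 that rose in footprints, against 27 of 58 members in all.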
